A study of Mus musculus with 18 samples.

Results

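Newly transcribed RNA of NIH-3T3 cells was compared between the 3 arrays of cultures given IFNγ and the 3 arrays of mock-treated cultures, both without CHX. These 6 arrays were chosen by their treatment labels from 18. NIH-3T3 is an established line of mouse fibroblasts, so that a single cell line stands for the response. The IFNγ cultures received 100 U/ml of IFNγ for 60 min and the mock cultures 0 U/ml. Both groups had been pre-treated for 15 min with the solvent of CHX, an inhibitor of translation, so that protein synthesis went on in all 6. 4sU, a uridine analogue that is built into RNA as it is made, was present at 500 µM for the final 30 min, and the tagged RNA was purified and hybridized. The intensities therefore follow RNA made in the second part of the hour of treatment and not the RNA that had accumulated. Processing and decay of the RNA within the 30 min can enter them beside transcription. The labels call the 3 arrays of a group biological replicates. A comparison group of 3 arrays of IFNα-treated cultures (100 U/ml, 60 min, solvent, same 4sU pulse) is used where the type of IFN matters, and 6 arrays with CHX, of cultures with and without IFNγ, where protein synthesis matters.

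IFNγ acts through a receptor of IFNGR1 and IFNGR2 chains, which carry the Janus kinases JAK1 and JAK2. The kinases phosphorylate STAT proteins, which pair, enter the nucleus and bind gamma-activated sites (GAS) in DNA. One early target encodes IRF1, a transcription factor that binds IRF elements and so extends the response to further genes. In fibroblasts the response is known for GTPases that attack intracellular parasites, for antigen presentation on MHC class I and for chemokines that attract T cells, while SOCS proteins shut the pathway down.

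The arrays fitted their labels as fibroblast cultures. All 9 fibroblast markers lay above the median intensity of every one of the 6 arrays, and their summed intensity was 51705 to 55796 in mock and 52538 to 58036 with IFNγ. None of the 8 leukocyte markers that the array named did (summed intensity 36.2 to 38.1 in mock and 36.6 to 37.8 with IFNγ), nor did any of 8 endothelial markers (44.3 to 50.8 and 43.6 to 45.4). The endothelial marker *Esam* reached at most 15.7 and lay above the array median on 3 of the 6 arrays. Of 8 epithelial markers, *Epcam* and *Krt5* lay above it on all 6 arrays but reached at most 14.6 and 10.8 (summed intensity 51.7 to 57.8 and 53.0 to 56.5). Pairs of arrays of a group correlated at 0.981 or more over the probe sets kept (log2 scale), and pairs across mock and IFNγ at 0.971 to 0.984. In a bulk culture, more responding cells and a stronger response per cell cannot be told apart.

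After 60 min IFNγ had raised the newly transcribed RNA of many more genes than it lowered. For each of 12121 genes the probe set with the highest mean intensity was taken, and a gene was called at a limma adjusted p under 0.01 (Benjamini-Hochberg, over 27773 probe sets) and a change of at least 2-fold. By this rule 245 genes rose (2.02% of those tested) and 35 fell (0.289%). The median change over all genes was 0.006 on the log2 scale. In both directions the IFNγ and mock arrays of every called gene did not overlap, and 17.9% of all genes tested had groups that did not overlap. The raised genes had a median log2 change of 1.79 (quartiles 1.39 and 2.60), and their median intensity went from 112 in mock to 474 with IFNγ. Most rises were moderate: 149 genes rose 2- to 4-fold, 49 rose 4- to 8-fold, 23 rose 8- to 16-fold, and 24 rose more. At the top, 10 genes rose over 64-fold, and 6 of these had a mock mean at or under the array median, where the fold depends on the lowest values that gc-RMA gives. Falls were smaller, with a median of -1.33, and 34 of the 35 were between 2- and 4-fold. None of the genes that fell started at or under the array median, and their median intensity went from 669 to 207. Among the genes with several probe sets kept, all probe sets were called in 38 of 110 that rose and in 2 of 20 that fell. Counted by any of their probe sets, 260 genes rose and 45 fell. When the 6 arrays were fitted alone, without the spread of the other 12, 103 of the 245 rises and 23 of the 35 falls lost their call. With the replicate numbers added as a block to the model of all 18 arrays, 289 genes rose and 61 fell.

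**Figure D1:**
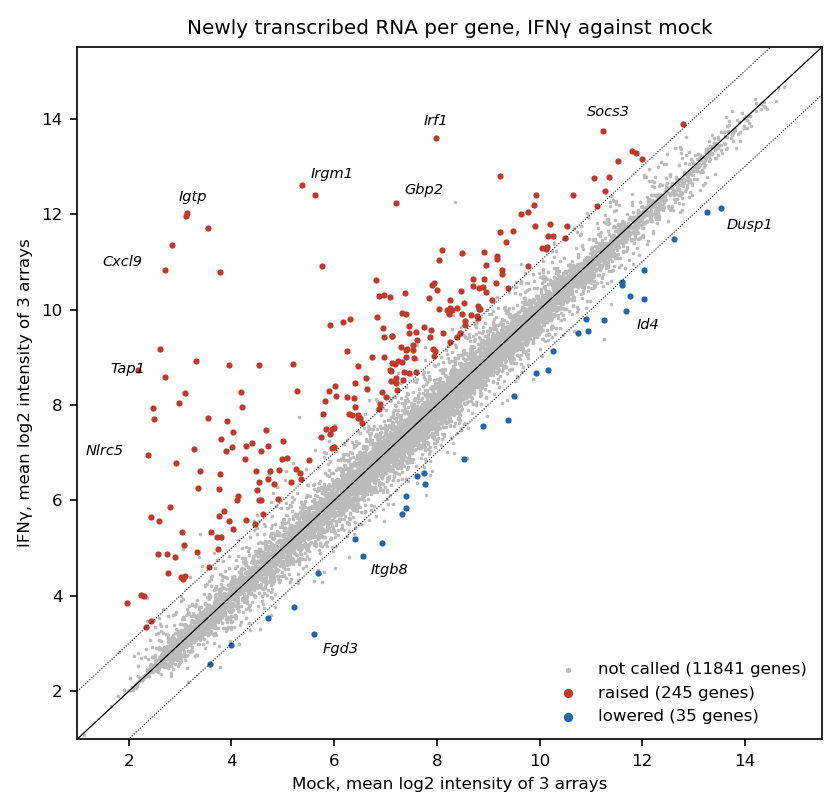
Mean log2 intensity of 3 mock arrays (x axis) and of 3 IFNγ arrays (y axis) for each of 12121 genes, 1 point per gene. Red points are the 245 genes that rose, blue points the 35 that fell and grey points those not called. The solid line is equality and the dotted lines are 2-fold. The rises reach far from the line, up to 8.88 for Igtp, while the largest fall is -2.40, that of Fgd3.

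Promoters of selected genes are shown first, because GAS and IRF elements are the sequences through which the pathway is known to act. They were picked by their matches and not by the size of the rise alone. The letters are from RefSeq (GRCm38.p6), 5′ to 3′ on the strand of the gene, in stretches of 120 bases out of windows that run from 250 bases before the start of the gene to 50 bases after it. Capitals mark every match to GAS (TTCNNNGAA) or to the IRF element (GAAANNGAA), on either strand. *Irf1* and *Socs3* are shown as promoters with a GAS match alone, *Igtp*, *Irgm2* and *Gbp7* as promoters with both, and *Irgm1* and *Cxcl10* as promoters with the IRF element alone. *Ifit3* is shown because it has 3 IRF elements and was not called with IFNγ, and *Tap1* because it rose 58.5-fold with no match in its window. *Ifi47* and *Tifa*, which rose 95.5- and 44.6-fold, had no match in their windows either.
Irf1, chr11:53769868-53769987, plus strand: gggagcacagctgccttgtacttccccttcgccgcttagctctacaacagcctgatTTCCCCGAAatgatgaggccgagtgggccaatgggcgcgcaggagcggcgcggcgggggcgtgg
Socs3, chr11:117969457-117969576, minus strand: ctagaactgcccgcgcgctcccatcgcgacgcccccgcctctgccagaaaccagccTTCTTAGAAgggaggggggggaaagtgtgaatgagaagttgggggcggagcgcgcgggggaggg
Igtp, chr11:58199460-58199579, plus strand: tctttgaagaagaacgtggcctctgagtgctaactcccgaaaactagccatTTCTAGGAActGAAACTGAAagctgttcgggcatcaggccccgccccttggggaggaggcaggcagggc
Irgm2, chr11:58214851-58214970, plus strand: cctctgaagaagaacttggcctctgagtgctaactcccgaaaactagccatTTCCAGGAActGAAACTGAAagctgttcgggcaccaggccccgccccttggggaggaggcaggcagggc
Gbp7, chr3:142530201-142530320, plus strand: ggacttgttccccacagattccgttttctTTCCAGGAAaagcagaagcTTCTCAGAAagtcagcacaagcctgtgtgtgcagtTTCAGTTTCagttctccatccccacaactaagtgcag
Irgm1, chr11:48871384-48871503, minus strand: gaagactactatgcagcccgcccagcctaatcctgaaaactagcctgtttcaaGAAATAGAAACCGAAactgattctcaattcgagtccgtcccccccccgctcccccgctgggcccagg
Cxcl10, chr5:92349020-92349139, minus strand: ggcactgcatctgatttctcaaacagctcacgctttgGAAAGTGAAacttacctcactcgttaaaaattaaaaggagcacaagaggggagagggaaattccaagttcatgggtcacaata
Ifit3, chr19:34583344-34583463, plus strand: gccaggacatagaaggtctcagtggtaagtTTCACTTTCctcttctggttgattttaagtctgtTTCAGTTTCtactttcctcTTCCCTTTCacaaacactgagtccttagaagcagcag
Tap1, chr17:34187396-34187515, plus strand: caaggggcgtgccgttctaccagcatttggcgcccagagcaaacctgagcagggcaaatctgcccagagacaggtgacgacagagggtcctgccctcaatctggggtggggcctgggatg
The GAS match of *Irf1* began at position -90 from the start of the gene, counted with 0 at the start. In the stretches of *Igtp* and *Irgm2*, neighbours on chromosome 11, 115 of 120 bases were identical, and both held a GAS match followed after a pair of bases by an IRF element (from -45 and -34 in *Igtp* and from -75 and -64 in *Irgm2*). The *Tap1* stretch also lies within the window of *Psmb9*, which is read from the other strand, so that both genes share it.

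The matches were counted over all genes, as a description without a test. Promoter windows were held for 193 of the 245 genes that rose, and 33 of these (17.1%) had a GAS match and 36 (18.7%) an IRF element. Over all 9796 genes tested that had a window the shares were 6.71% and 7.17%. Among 18 genes that rose at least 16-fold, 5 (27.8%) had a GAS match and 11 (61.1%) an IRF element. Among the 26 windows of genes that fell, 2 (7.69%) had a GAS match and 1 (3.85%) an IRF element. The GC box (GGGCGG), taken as a motif of promoters in general, was in 71% of the windows of genes that rose, in 50% of those of genes that fell and in 63% of all. GAS and IRF matches can share letters, which they did in 3 windows of the genes that rose and in 16 of all windows. With the IRF element lengthened by 1 A the share was 11.9% among genes that rose and 3.07% among all. A match is a run of letters, and factor binding was not measured here.

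**Figure D2:**
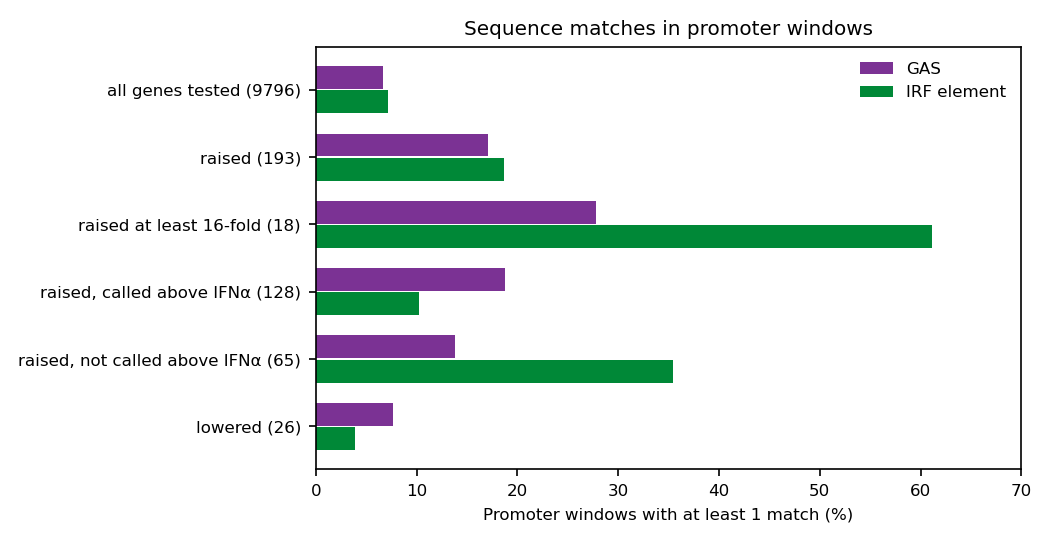
Share of promoter windows (x axis, in percent) with at least 1 GAS match (purple) or IRF element (green), for all genes tested, the genes that rose with IFNγ and subsets of them, and the genes that fell. The number of windows is in brackets. The longest bar is the IRF element in genes raised at least 16-fold, at 61.1%.

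The receptor and its kinases were transcribed in mock cells and did not pass the test with IFNγ. Of 12 measured genes for IFN receptors, Janus kinases and STATs, 3 rose and 0 fell, with a median log2 change of 0.24. *Ifngr1*, the ligand-binding chain, was at 92.4, 97.8 and 101 in the mock arrays and 82.3, 82.2 and 86.3 in the IFNγ arrays (log2 change -0.21, SE 0.12, adjusted p = 0.626), and the groups did not overlap. *Jak1* and *Jak2* changed by 0.30 and 0.17 (SE 0.17 and 0.16, adjusted p = 0.647 and 0.971). *Ifngr2*, the signalling chain, varied too much to be placed, with 59.1, 30.3 and 111 in the IFNγ arrays and 106, 84.6 and 82.7 in mock. *Stat3*, which also carries signals of the IL-6 family, rose 3.35-fold, from 1774, 1470.2 and 1586 to 5457, 5416 and 5241 (log2 change 1.74, SE 0.14, adjusted p = 1.52e-06). *Ifnar2*, a chain of the IFNα receptor, rose from 337, 292 and 286 to 922, 1218 and 1039 (3.46-fold, adjusted p = 2.58e-05). *Stat2*, the STAT of the IFNα pathway, went from 12.3, 14 and 9.3 to 203, 107 and 440.2, with all 3 arrays higher but 1 IFNγ array over 4 times another. Its call (log2 change 4.18, SE 0.71, adjusted p = 0.00241) was lost with an added constant of 16, with the 6 arrays alone and in 5 of the 6 fits that each left out 1 array.

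Of the transcription factors that extend the response, *Irf1* rose most. Its intensity was 376, 204 and 213 in the mock arrays and 13276, 12456 and 11533 in the IFNγ arrays, 48.9-fold higher (log2 change 5.61, SE 0.24, adjusted p = 1.46e-09). The 2 groups lay far apart, with little spread among the IFNγ arrays. *Irf9*, the DNA-binding partner of STAT proteins in the IFNα response, rose 12.8-fold, from 49.6, 33.4 and 29.5 to 619, 382 and 429.8 (adjusted p = 2.28e-06). The other 4 measured IRF genes were not called. *Irf7*, which drives the later IFNα/β response, stayed at the lowest intensities, with 6, 5.7 and 5.6 in mock and 5.8, 6 and 5.8 with IFNγ, and *Irf3* changed by 0.13 (SE 0.13). *Irf8*, a factor of myeloid cells, lay below the filter on low values. *Irf2* differed by 0.84 with a wide error (SE 0.44, adjusted p = 0.588), and 1 mock array (390.1) lay within the range of the IFNγ arrays.

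Feedback inhibitors of the pathway were among the rises. Of 16 measured negative regulators of IFN signalling, 3 rose and 0 fell, and all 3 belong to the SOCS family, which blocks Janus kinases and cytokine receptors. *Socs1*, the main inhibitor of the IFNγ receptor, went from 172, 117 and 127 to 2051, 768 and 1169 (8.96-fold, SE 0.36 on the log2 scale, adjusted p = 6.76e-05). *Socs3* rose 5.68-fold, from 3603, 1956 and 2015 to 13463, 15524 and 12474, and *Cish* 7.36-fold, from 118, 65.8 and 56 to 673, 651 and 395 (adjusted p = 4.47e-05 and 0.000941). The IFNγ arrays of all 3 genes lay above their mock arrays. With the 6 arrays alone *Socs1* and *Cish* lost the call (adjusted p = 0.0151 and 0.0161). *Ptpn2*, a phosphatase of the pathway, and *Socs5* were at 0.03 and 0.20 (SE 0.17 and 0.11). *Usp18*, which restrains the IFNα receptor, stayed low, with 6.5, 6.5 and 6.2 in mock and 9.4, 9 and 9.8 with IFNγ.

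**Figure D3:**
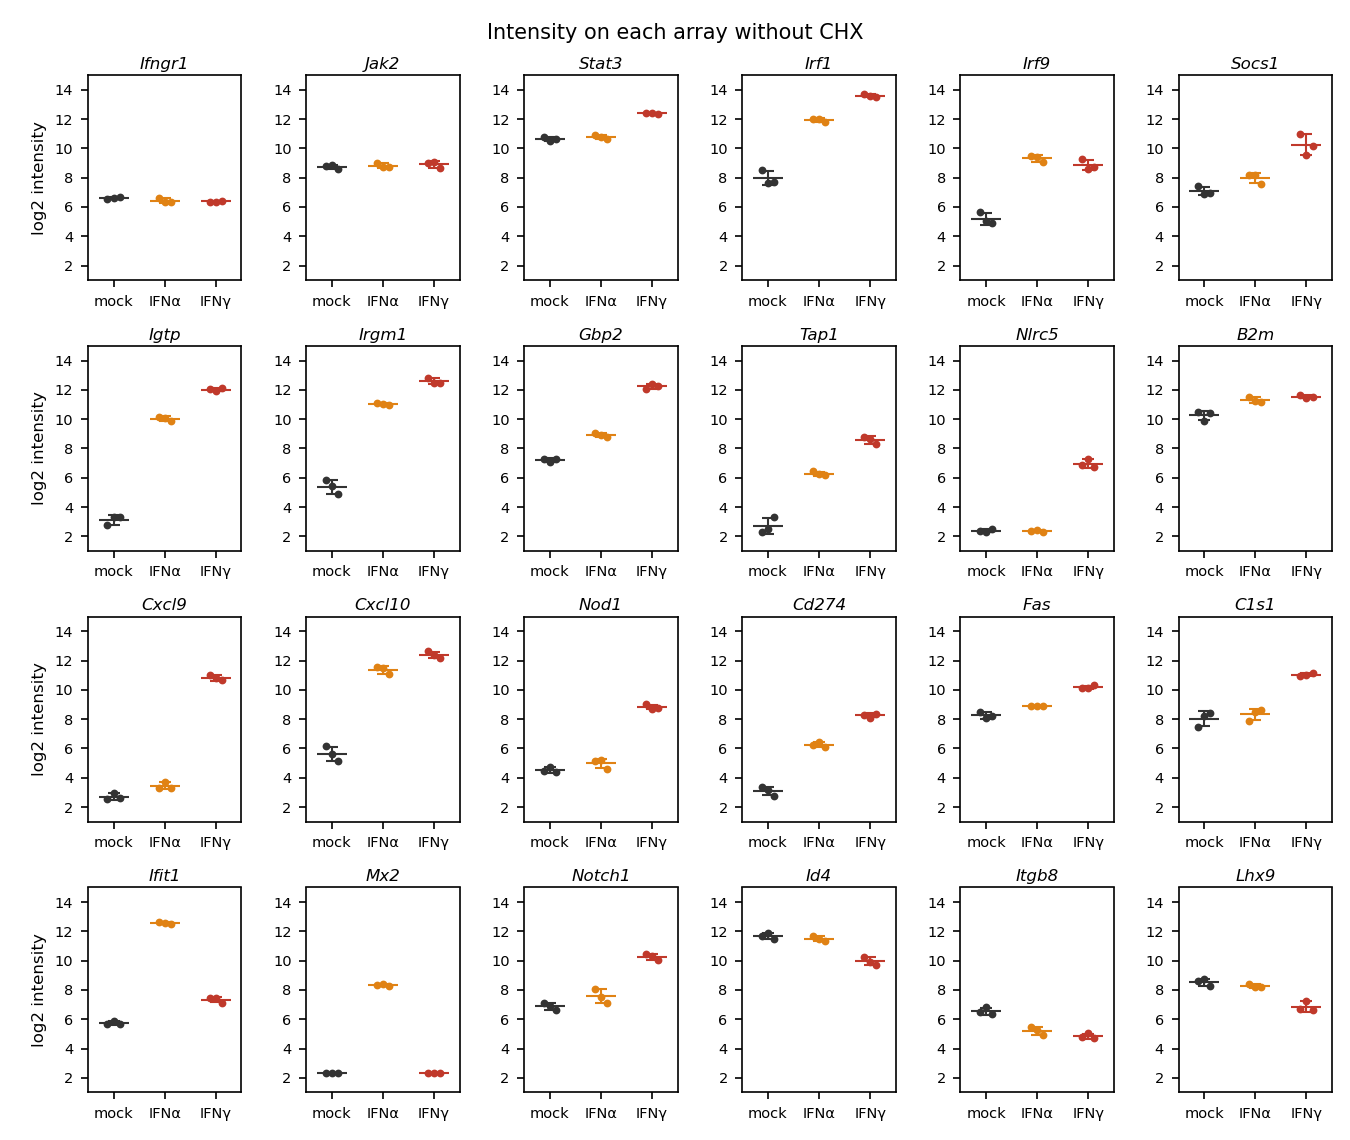
Log2 intensity on each array (y axis) of 24 genes in mock, IFNα and IFNγ cultures without CHX. Points are the 3 arrays of a group, and the bar with whiskers is their mean ± SD. The arrays of a group lie close together beside the step with IFNγ, as for Irf1, while Ifngr1 and Jak2 stay near their mock level, Ifit1 and Mx2 step up with IFNα and Id4, Itgb8 and Lhx9 lie lower with IFNγ.

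The GTPase families held the largest rises. Of 6 measured immunity-related GTPases (IRG, of 13 listed), which attack the vacuoles of intracellular parasites, 5 rose and 0 fell, with a median log2 change of 7.70. *Igtp* was at 6.7, 9.9 and 10.1 in mock and 4191, 3830.3 and 4397 with IFNγ, 472-fold higher, and *Irgm2* at 9, 7.6 and 9.5 and 3969, 3732 and 4215, 458-fold higher. The mock means of both lay under the array median, and with a constant of 16 added the log2 changes were 7.38 and 7.33 instead of 8.88 and 8.84. *Irgm1*, a regulator of the other IRG proteins, started above the array median and still rose 151-fold, from 57.5, 42.7 and 29 to 7348, 5805 and 5798 (SE 0.29, adjusted p = 8.06e-10). *Iigp1* rose from 12.2, 11.4 and 11.6 to 3220.2, 3053 and 3750.1 (284-fold, adjusted p = 6.51e-13), and *Gm4951*, its neighbour on chromosome 18, rose by 3.22 (SE 0.26). *Irgq* changed by -0.10 (SE 0.25, adjusted p = 1). *Ifi47*, a further IFNγ-inducible GTPase, went from 4.8, 5.4 and 8.7 to 605, 596 and 546 (95.5-fold, adjusted p = 4.73e-09).

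Of 6 measured guanylate-binding proteins (GBP, of 11 listed), larger GTPases that coat pathogens and their vacuoles, 4 rose and 0 fell. *Gbp2* went from 153, 134 and 157 to 4269, 5418 and 4905 (32.8-fold, SE 0.25, adjusted p = 8.95e-09). *Gbp6* rose from 6.8, 7.8 and 7.1 to 2508, 2687 and 2663, *Gbp7* from 10.2, 15.7 and 16.1 to 1584, 1979.5 and 1769 and *Gbp3* from 5.3, 14.2 and 13.2 to 485, 534 and 438 (363-, 129- and 48.5-fold, adjusted p at most 4.93e-08). Among the 6 measured, these 4 rose over 32-fold, while *Gbp8* and *Gbp2b* lay at or under the array median in both groups (0.08 and 0.04). At such low values a gene that did not respond cannot be told from a probe set without signal. GBP and IRG genes are families of close copies, and how far a probe set also detects a relative was not tested.

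Of 15 measured genes of antigen presentation on MHC class I, 5 rose and 0 fell, with a median of 0.70. *Tap1*, a subunit of the peptide transporter, rose 58.5-fold, from 5, 5.6 and 9.9 to 443, 397 and 316 (SE 0.22, adjusted p = 2.71e-10), and *Tap2*, the other subunit, 3.07-fold, from 15, 15.1 and 16.3 to 49.1, 40.8 and 53.3 (adjusted p = 0.000383). *Nlrc5*, the transactivator of class I genes, was at 5.1, 4.9 and 5.6 in mock and 116, 157 and 106 with IFNγ (24-fold, SE 0.15, adjusted p = 6.77e-11). The groups did not overlap in any of these 3 genes. *B2m*, the light chain, rose 2.44-fold, from 1425, 939 and 1369.8 to 3204, 2810.3 and 2952, and *Tapbp*, which holds class I molecules at the transporter, rose by 1.18 (SE 0.13, adjusted p = 6.38e-05). *B2m* lost the call with the 6 arrays alone (adjusted p = 0.0269). The heavy chain genes *H2-K1* and *H2-D1*, which are close copies, were at 0.74 and 0.70 (SE 0.26 and 0.23, adjusted p = 0.209 and 0.161), under the 2-fold limit. The chaperone genes *Canx* and *Calr* were at -0.08 and -0.01 (SE 0.14 and 0.20).

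The proteasome subunits that are exchanged in the IFNγ response were set beside their constitutive counterparts. *Psmb9*, an immunoproteasome subunit, rose 11.3-fold, from 13.3, 15.9 and 12.7 to 186, 135 and 152 (SE 0.25, adjusted p = 4.23e-07), and *Psme1*, of the PA28 activator, 2.97-fold, from 165, 137 and 180.3 to 433, 425 and 580.4 (adjusted p = 7.04e-05, and 0.0112 with the 6 arrays alone). *Psmb10* went from 45.2, 42 and 46.2 to 78.3, 79.5 and 82.7, a change of 0.85 (SE 0.11, adjusted p = 0.000243), which passed the p threshold and not the fold limit. *Psmb8* read 11.4, 10 and 10.5 in mock and 10.9, 11.6 and 10.2 with IFNγ (0.04, SE 0.10). These values lie near the low array median, so that whether its probe set detected the RNA is not known. Of 14 constitutive 20S subunits 0 were called, and their changes ran from -0.19 to 0.23. The list of the MHC class II pathway gave 0 calls among 6 measured, with a median of -0.001 and a range from -0.09 to 0.45. Over all genes tested 2.02% rose and 0.289% fell, so that 0 calls is near what lists of 14 and 6 genes would give. The 6 included *Ctss* and *Ifi30* beside class II genes. *Ciita*, the gene of the transactivator of class II genes, lay below the filter on low values.

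Of 19 measured chemokine genes, 6 rose and 0 fell, with a median of 0.63. *Cxcl9* and *Cxcl10*, ligands of the chemokine receptor CXCR3 of T cells, rose most. *Cxcl9* was at 5.8, 7.9 and 6.1 in mock and 2099, 1782 and 1606 with IFNγ (278-fold, SE 0.21, adjusted p = 5.97e-12), and *Cxcl10* went from 70.4, 49.1 and 35.6 to 6399, 5230.4 and 4701 (109-fold, SE 0.43, adjusted p = 1.25e-07). *Cxcl11*, the third ligand of the receptor, changed by 0.49 (SE 0.30, adjusted p = 0.727). *Ccl11*, which attracts eosinophils, rose 14-fold, from 9, 9.7 and 10.4 to 156, 125 and 128, and the membrane-bound *Cx3cl1* 5.32-fold, from 338, 210 and 235 to 1497, 1315 and 1275 (adjusted p = 1.95e-08 and 1.73e-05). *Cx3cl1* lost the call when the median of its probe sets was used (log2 change 1.68, adjusted p = 0.159). *Ccl7* and *Cxcl12* rose by 1.39 and 1.20 (SE 0.19 and 0.15). The neutrophil attractant *Cxcl1* and the monocyte attractant *Ccl2* were both higher on all 3 IFNγ arrays without being called (0.40 and 0.75, adjusted p = 0.0309 and 0.0338).

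**Figure D4:**
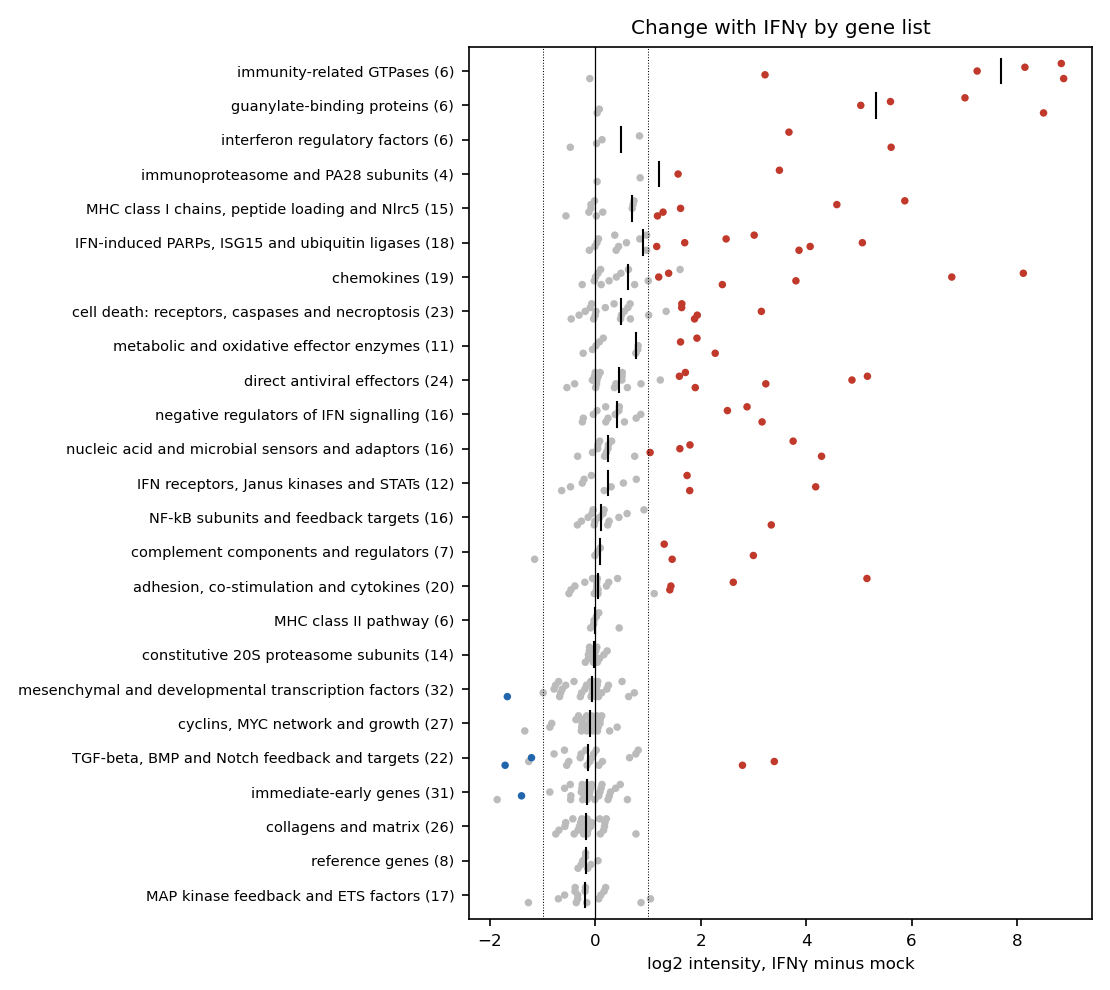
Log2 change with IFNγ against mock (x axis) of each measured gene of 25 lists, 1 point per gene, with the number of genes in brackets. Red points rose, blue points fell and grey points were not called. The black bar is the median of the list and the dotted lines are 2-fold. The GTPases lie furthest to the right, with medians of 7.70 and 5.32, and most lists below the middle have medians near 0.

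Antiviral effectors rose in part. Of 24 measured, 6 rose and 0 fell, and 11 were at or under the array median in mock. *Samhd1*, which depletes nucleotides needed by viruses, rose 35.8-fold, from 68.4, 50.8 and 45.8 to 1949, 2042 and 1835 (SE 0.28, adjusted p = 1.95e-08). *Rtp4* went from 15.7, 19.5 and 12.4 to 493, 459 and 419 (29.2-fold), *Oasl2* from 5.5, 4.7 and 6 to 49.9, 53.2 and 48.8 (9.42-fold) and *Ifi35* from 142, 139.6 and 201 to 605, 623 and 545 (3.72-fold), with adjusted p at most 5.67e-05. *Ifitm3*, which blocks virus entry at the endosome, rose by 1.71 (SE 0.22) and *Ifit1*, which binds viral RNA, by 1.60 (SE 0.19). Several classical IFNα targets stayed at their mock intensity, among them *Mx1* (8.5, 7.6 and 7.9 in mock and 8.1, 8.1 and 7.9 with IFNγ), *Mx2* (5.1, 4.9 and 4.9 and 5, 5 and 4.9) and *Oasl1* (4.6, 4.5 and 4.3 and 4.2, 4.5 and 4.2). *Ifit3* was at 21.1, 16.4 and 21.3 and 29.3, 23.5 and 22.8 (log2 change 0.36, SE 0.27).

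Of 16 sensors and adaptors, 5 rose and 0 fell. *Nod1*, a receptor for bacterial wall fragments, rose 19.6-fold, from 22.4, 26.9 and 20.9 to 521, 419 and 433 (SE 0.20, adjusted p = 4.73e-09). *Sting1*, the adaptor of DNA sensing, went from 87.7, 41.2 and 61.4 to 1149, 836 and 567 (13.5-fold, SE 0.51, adjusted p = 0.000332), and *Ifi204* from 309, 311 and 266 to 1057, 1036 and 980.3 (3.48-fold, adjusted p = 1.17e-05). The groups did not overlap in any of the 3. *Myd88*, the Toll-like receptor adaptor, rose 3.04-fold and *Ddx58*, an RNA sensor, 2.06-fold (adjusted p = 0.000571 and 0.00149). Both lost the call with the 6 arrays alone, and *Ddx58* also with the added constant, with the median of its probe sets and without mock replicate 1 or IFNγ replicate 2. *Cgas*, the DNA sensor upstream of STING, was at 0.24 (SE 0.13).

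Of 18 genes for PARP proteins and ubiquitin or ISG15 enzymes, 7 rose and 0 fell, with a median of 0.91. *Trim21*, an antibody receptor and ubiquitin ligase of the cytosol, rose 33.5-fold, from 8.1, 7.7 and 7.8 to 307, 261 and 229 (SE 0.19, adjusted p = 3.76e-10). The partner genes *Parp9* and *Dtx3l* rose 8.08- and 16.9-fold, and *Parp14*, next to them on chromosome 16, 14.6-fold, from 7, 7.8 and 8 to 109, 123 and 101. All 3 passed with adjusted p at most 1.97e-07. *Rnf213* was at 0.98 (SE 0.14, adjusted p = 0.00045), just under the 2-fold limit.

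Death receptors and mediators of inflammatory death were among the rises. Of 23 measured genes of cell death, 5 rose and 0 fell. *Fas* went from 364, 269.5 and 292 to 1147, 1102 and 1265 (3.82-fold, SE 0.13, adjusted p = 2.42e-07) and *Tnfrsf1a*, the TNF receptor, from 565, 406 and 398 to 1604, 1448 and 1196 (3.12-fold, adjusted p = 0.000665). *Ripk3*, the kinase of necroptosis, rose 3.69-fold, from 30.4, 29.5 and 35.5 to 129.5, 114 and 109, and *Casp4*, a sensor of lipopolysaccharide in the cytosol, rose by 1.64 (SE 0.16). *Xaf1*, which counters the inhibitor XIAP, rose 8.89-fold, from 20.2, 8.3 and 19.4 to 134, 150 and 114. *Xaf1* and *Tnfrsf1a* lost the call with the 6 arrays alone (adjusted p = 0.0142 and 0.0126). The inhibitors *Cflar* and *Mcl1* were at -0.03 and -0.19 (SE 0.10 and 0.10).

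Among surface molecules and cytokines, 4 of 20 rose and 0 fell. *Cd274*, which encodes the inhibitory ligand PD-L1, rose 35.6-fold, from 10.2, 9 and 6.9 to 319.8, 274 and 326 (SE 0.14, adjusted p = 7.07e-12). *Il4ra* and *Il13ra1*, chains of receptors for IL-4 and IL-13, rose 6.14- and 2.67-fold (adjusted p = 3.34e-05 and 0.000299). The cytokine gene *Il6* went from 2826, 2905 and 2155 to 7986, 6740 and 6499 (2.7-fold, adjusted p = 0.00042, and 0.0111 with the 6 arrays alone). *Csf1* and *Lif* were at 0.03 and -0.50 (SE 0.11 and 0.22).

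Of 7 complement genes 3 rose. *C1s1*, a protease of the first component, rose 7.99-fold, from 176, 299 and 349 to 2004, 2055 and 2279.6 (SE 0.26, adjusted p = 4.17e-06), and its partner *C1ra* 2.75-fold, from 52.5, 88.8 and 114 to 243, 185 and 246 (adjusted p = 0.00751). The call of *C1ra* was lost without the filter on low values, with the 6 arrays alone and in 5 of the 6 fits that each left out 1 array. *C3ar1*, the receptor of the C3a fragment, went from 9.1, 8.3 and 8.4 to 16, 29.2 and 20.6 and lost the call with the 6 arrays alone and with the added constant. *Cd55*, which protects cells from complement, was lower on all 3 IFNγ arrays (70.1, 45 and 43.1 in mock and 22.5, 24.6 and 22.5 with IFNγ) and was not called (adjusted p = 0.0275). These values are of its probe set with the highest mean, while 1 of the 3 *Cd55* probe sets kept was called lower.

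Of 11 effector enzymes 3 rose. *Sod2*, the mitochondrial superoxide dismutase, went from 952, 695 and 1017 to 5019.5, 3843 and 3950.2 (4.84-fold, SE 0.23, adjusted p = 1.7e-05). *Upp1*, a uridine phosphorylase, rose 3.81-fold and *Wars*, the tryptophan tRNA synthetase gene, 3.07-fold, and both lost the call with the 6 arrays alone (adjusted p = 0.0211 and 0.0104). *Nos2*, the inducible nitric oxide synthase gene, lay below the filter on low values. Of 16 measured genes of the NF-κB list 1 rose. It was *Bcl3*, a nuclear IκB protein, from 227, 90.8 and 95.8 to 1545, 1285 and 1031 (10.1-fold, adjusted p = 0.000375, and 0.0142 with the 6 arrays alone). The feedback targets *Nfkbia* and *Nfkbiz* were at -0.14 and 0.24 (SE 0.10 and 0.10).

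A number of the strongest rises belonged to genes outside these lists. *Tifa*, an adaptor that links bacterial sugars to TRAF6, went from 5.9, 5.7 and 5 to 280.4, 215 and 247 (44.6-fold, SE 0.31, adjusted p = 4.28e-08). *Apol6*, an apolipoprotein L gene, rose 93.7-fold, from 4.8, 4.4 and 4.5 to 441, 426 and 416 (SE 0.24). *BC023105*, beside *Iigp1* on chromosome 18, rose 37.1-fold, from 5.3, 5.7 and 5.8 to 185, 219 and 220.4. All 3 started at or under the array median, and the added constant of 16 left log2 changes of 3.61, 4.43 and 3.37. *Gpr155* rose 11.8-fold, from 74.1, 86.2 and 60 to 821, 863 and 887.

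The largest of the 35 falls were those of genes with varied roles. *Id4*, an inhibitor of helix-loop-helix transcription factors, fell from 3349, 3777 and 2839.5 to 1232, 978 and 854 (log2 change -1.71, SE 0.18, adjusted p = 3.89e-05). *Bnc1*, a zinc finger factor, fell from 3511, 3786 and 3124 to 1253, 1233 and 1253 (log2 change -1.48, SE 0.14, adjusted p = 8.59e-06), and *Lurap1l* from 4274, 4439 and 3822 to 1360.1, 1189 and 1041 (adjusted p = 1.16e-05). The mock and IFNγ arrays of these 3 genes lay far apart. *Itgb8*, the integrin chain that activates latent TGFβ, fell from 89.7, 113 and 82.4 to 27.7, 32.9 and 26 (log2 change -1.71, SE 0.15), and *Tgfb2*, a TGFβ ligand, from 102, 85 and 71.3 to 38.4, 40.5 and 32.1 (log2 change -1.21, adjusted p = 0.000346). *Rgs4*, which dampens G-protein signals, fell from 767, 669 and 584 to 243, 211 and 172 (log2 change -1.70, adjusted p = 0.00045). *Fgd3*, an activator of the small GTPase CDC42, fell from 41.3, 52.9 and 52.9 to 13.4, 8.6 and 6.8, the largest fall, and 2 of its IFNγ values lay under the array median. *Tet1*, which oxidizes methylated cytosine, the LIM homeobox gene *Lhx9*, the bZIP gene *Maf* and the caveolar gene *Cavin4* fell as well (log2 changes -1.84, -1.67, -1.60 and -1.55). These 4, *Fgd3* and *Tgfb2* lost the call with the 6 arrays alone, *Tet1*, *Maf* and *Tgfb2* also with the median of the gene's probe sets, and *Tgfb2* with the added constant. *Lhx9* also lost it without mock replicate 2, IFNγ replicate 1 or IFNγ replicate 3, and *Cavin4* without mock replicate 1, mock replicate 2 or IFNγ replicate 1.

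The lists that could have moved with these falls held few called members, and over all genes tested 2.02% rose and 0.289% fell. A single fall in a list of 22 to 32 genes lies above the latter share. Of 22 genes of TGFβ, BMP and Notch signalling, *Notch1* and the inhibitory *Smad6* rose (10.5- and 6.93-fold), and *Id4* and *Tgfb2* fell. *Notch1* went from 139, 119 and 98.1 to 1410.4, 1251 and 1072 (SE 0.24, adjusted p = 4.99e-07). *Id1* and *Id3*, relatives of *Id4*, were at -0.18 and -0.06 (SE 0.18 and 0.19). Of 32 mesenchymal and developmental transcription factors only *Lhx9* fell. *Prrx1* was at -0.69 (adjusted p = 0.00765), past the p threshold and under the fold limit. Of 31 immediate-early genes only *Dusp1*, a MAP kinase phosphatase, fell, from 12137, 12297 and 10980.1 to 5893, 4225 and 3593 (log2 change -1.40, adjusted p = 0.000367, and 0.0258 with the 6 arrays alone). The changes of the 31 ran from -1.86 to 0.61. None of 17 genes of MAP kinase feedback, 27 of the cell cycle and MYC network, 26 of collagens and matrix and 8 reference genes was called, and their medians were -0.19, -0.09, -0.17 and -0.18. In the same order the changes ran from -1.27 to 1.05, from -1.34 to 0.42, from -0.75 to 0.77 and from -0.33 to 0.05. The first 2 lists thus held members past 2-fold that did not pass the p threshold or the call. At the shares over all genes, 0 calls is near what lists of 8 to 27 genes would give. *Myc* itself was at -0.47 (SE 0.25, adjusted p = 0.611).

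Set directly against IFNα, 184 genes were higher with IFNγ (1.52% of those tested) and 62 lower (0.512%). Of the 245 genes that IFNγ raised, 170 were called higher than with IFNα, 14 lower and 61 neither. The same IFNγ arrays had chosen these genes, so that this count describes them and is no independent test. *Cxcl9* differed most, with 10, 13.1 and 10 on the IFNα arrays and 2099, 1782 and 1606 on the IFNγ arrays (log2 difference 7.38, adjusted p = 3.78e-11). *Nlrc5* (5.1, 5.4 and 5 with IFNα), *Tifa* (5.9, 5.9 and 5.1), *BC023105* (6.8, 6.3 and 5.9) and *Ccl11* (9.5, 8.8 and 9.1) were near their mock intensity with IFNα as well. *Apol6*, *Gpr155* and *Nod1* were higher with IFNγ by 4.96, 4.04 and 3.84. *Stat3* was at 1899, 1741 and 1591 with IFNα, and was higher with IFNγ by 1.63 (adjusted p = 4.27e-06). *Cxcl10*, *Irf9*, *Gbp3*, *Trim21* and *B2m*, which IFNγ raised, were not called between the 2 IFNs, with differences of 1.03, -0.46, 0.45, 0.12 and 0.23 (SE 0.43, 0.30, 0.33, 0.19 and 0.18).

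By role the difference ran both ways. All 5 IRG genes that rose and 3 of the 4 GBP genes were higher with IFNγ, as were 4 of 19 chemokines and 4 of 23 cell death genes. Of 24 antiviral effectors 12 were lower with IFNγ than with IFNα and 1, *Samhd1*, was higher, with a median difference of -1.45. *Mx2* was at 326, 346 and 305 with IFNα against 5, 5 and 4.9 with IFNγ (log2 difference -6.03, adjusted p = 5.67e-15), and *Usp18* at 659, 650.3 and 578 against 9.4, 9 and 9.8 (-6.06). *Ifit1* was at 6470.2, 6037 and 5933 against 175, 173 and 139, so that a gene that IFNγ raised 3-fold was lower by 5.25 on the log2 scale. *Ifit3*, *Ddx58*, *Oas1a*, *Ifih1* and *Oasl1* followed, with differences from -4.59 to -3.09. None of 18 PARP and ubiquitin genes was higher and 6 were lower. Of the 35 genes that fell with IFNγ, 21 were called lower than with IFNα and 14 were not. *Itgb8* was among the 14, with 43.6, 37.9 and 30.6 on the IFNα arrays (difference -0.37, SE 0.15).

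**Figure D5:**
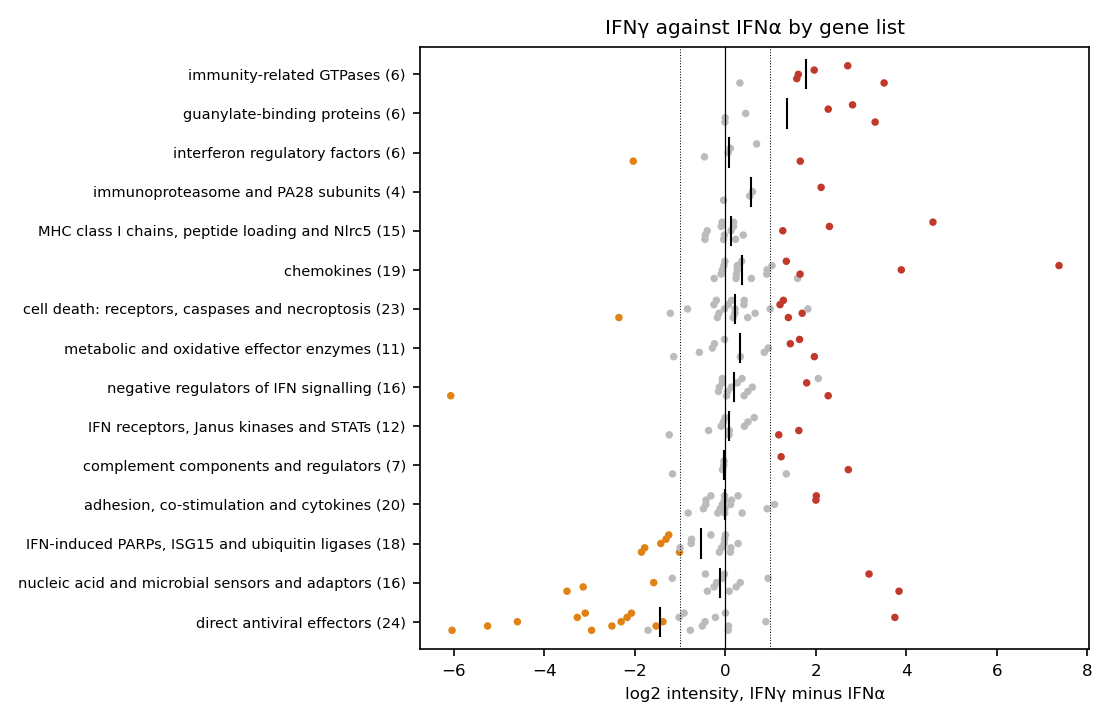
Log2 intensity with IFNγ minus that with IFNα (x axis), both without CHX, for each measured gene of 15 lists, 1 point per gene. Red points were called higher with IFNγ, orange points higher with IFNα, and grey points neither. The black bar is the median of the list. Usp18 (-6.06, a negative regulator) and Mx2 (-6.03, an antiviral effector) lie furthest to the left and Cxcl9 (7.38) furthest to the right, and the antiviral effectors have a median of -1.45.

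The promoters of the genes that IFNγ raised were also split by the comparison with IFNα. Of 128 windows of genes called above IFNα 18.8% had a GAS match and 10.2% an IRF element, and of 65 windows of genes not called above IFNα 13.8% and 35.4% did. These are counts of letters without a test.

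With CHX in both groups IFNγ raised 714 probe sets (413 genes, 3.41% of those tested) and lowered 170 (75 genes, 0.619%), beside 394 and 58 probe sets without CHX. The signed difference, the log2 response with CHX minus that without it, was called above 0 for 37 genes (0.305% of those tested) and below 0 for 7 (0.0578%). A value above 0 can be a larger rise or a smaller fall, and 2 of the 35 genes that fell without CHX were among the 37. Among the 245 genes that rose without CHX, 10 responded more strongly with CHX and 3 less strongly. *Irf1* rose by 5.61 without CHX and by 3.38 with it (difference -2.23, SE 0.34, adjusted p = 0.00698), *Ccl11* by 3.81 and then changed by 0.89 (difference -2.91, SE 0.29), and *Psme1* by 1.57 and then -0.29. For *Nlrc5* and *Cxcl9* the response was larger with CHX, by 2.29 and 2.34 (adjusted p = 8.95e-05 and 0.00183). Large differences that were not called ran both ways. They were -2.42 for *Cxcl10* and -1.82 for *Ifi47*, and 1.80 for *C1s1* and 1.49 for *Tap1* (SE 0.605, 0.435, 0.366 and 0.305). The 6 measured IRG and 6 measured GBP genes gave 0 calls in this comparison, which these low shares over all genes would give for most sets so small. Their uncalled differences included -1.37 for *Gbp2* and 0.89 for *Gbp7* (SE 0.35 and 0.31). These counts are small and moved with single arrays, to between 23 and 42 genes above 0 and between 3 and 7 below when 1 array was left out.

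Many genes that rose lay beside each other on the chromosomes, which is given as a count without a test. Of 244 that could be placed in the order of measured genes, 58 (23.8%) had a neighbour that also rose, while 3.86% of all genes had such a neighbour. They formed 25 runs. The longest held 4 genes on chromosome 18, *Gm4951*, *Iigp1*, *BC023105* and *Smim3*. Others were *Psme1*, *Rnf31* and *Irf9* on chromosome 14, *Parp14*, *Dtx3l* and *Parp9* on chromosome 16, *Psmb9* and *Tap1* on chromosome 17, *Igtp* and *Irgm2* on chromosome 11 and *Gbp7* and *Gbp3* on chromosome 3. Of the 35 genes that fell, 0 had a neighbour that fell, against 0.572% of all genes. Several of these runs are families of close copies, so that their members are not independent.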

How the data were processed

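Newly transcribed RNA was measured on 18 Affymetrix mouse arrays. The authors deposited 1 linear intensity per probe set and array, computed with gc-RMA according to the methods, while Affymetrix Expression Console is the software in the submitters' notes. The array medians were 9.6 to 10.8, and the values were used as scaled by the authors. The log2 of the intensity was taken with no constant. Of 45101 probe sets 64 controls were dropped, and 27773 with the highest maximum over the arrays were kept (as many as the study kept by its present calls, 27759, plus ties, with a lowest maximum of 8.5). All 18 arrays in 6 treatments entered 1 limma model (limma 3.58.1, R 4.3.3, 12 residual and 2.05 prior degrees of freedom) without a replicate block. P-values were adjusted by Benjamini-Hochberg over the probe sets kept, for each comparison. A call needed an adjusted p under 0.01 and 2-fold.

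A gene is a symbol with a probe set of its own. Of probe sets kept, 22348 had a single symbol, and listed genes found on probe sets of several symbols were not counted. Symbols were updated through RefSeq (67 identifiers without a match kept the array's symbol). Promoters are the RefSeq windows of GRCm38.p6, the outermost where a gene had several. Named genes are the 15 largest rises and 10 largest falls with the same sign in the 3 replicate numbers, up to 4 called and 2 bright uncalled members of each list, members that fell, key genes of the pathway and the 8 largest differences from IFNα each way, and members given by their log2 change alone. The lists, genes and tests were chosen with earlier results of these data known. The fit was tested on simulated data. Arrays have no depth. Their number limits the precision, and p-values measure the spread between the arrays of a group. Alternatives were a constant of 16, no filter, a filter at 64, quantile normalization, median centring, the compared arrays alone, a replicate block, each array left out, the median of a gene's probe sets and other promoter windows and motifs.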

Additional observations from a re-analysis of the deposited data

Results flagged for a closer look

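For 10 named genes the response to IFNγ with CHX differed from that without it in a test of the difference itself (limma, adjusted p under 0.01 and at least 2-fold, 3 arrays per group). The value is the log2 response with CHX minus that without.

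The difference was below 0 for *Ccl11* (-2.91, SE 0.29, adjusted p = 0.000176), *Irf1* (-2.23, SE 0.34, adjusted p = 0.00698) and *Psme1* (-1.86, SE 0.26, adjusted p = 0.00305). *Irf1* still rose with CHX, by 3.38. *Ccl11* rose by 3.81 without CHX and was at 0.89 with it, which was not called. *Psme1* rose by 1.57 without CHX and was at -0.29 with it. The rise was larger with CHX for *Cxcl9* (2.34), *Nlrc5* (2.29), *Trim21* (1.78), *Ddx58* (1.67), *Usp18* (1.66) and *Rnf213* (1.54), with adjusted p from 8.95e-05 to 0.00714. Of these *Usp18* and *Rnf213* were not called without CHX (0.55 and 0.98). *Itgb8*, which fell by 1.71 without CHX, was at -0.41 with it, a difference of 1.30 (SE 0.21, adjusted p = 0.00975). The part of the CHX arrays' own levels in these differences was not tested.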

How the results depend on the processing

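No named gene that was called changed sign in an alternative fit, while counts of calls grew or shrank. With the compared arrays alone, which leaves fewer arrays to estimate the spread, IFNγ raised 231 probe sets (143 genes) instead of 394 (245) and lowered 19 (13) instead of 58 (35), 176 (110) instead of 305 (184) were higher than with IFNα and 45 (27) instead of 104 (62) lower, and the response with CHX minus that without was above 0 for 24 (17) instead of 55 (37) and below 0 for 3 (3) instead of 11 (7). Of 139 named genes 22 lost their call in this fit. The last count of probe sets was 7 without the filter and 4 (4 genes) after median centring, and the cause was not tested. The replicate numbers of mock and IFNγ arrays paired in part (correlations of deviations 0.569, -0.089 and 0.452 for replicates 1, 2 and 3). Over all pairs of treatment groups these correlations ran from 0.347 to 0.784 for replicate 1 and from 0.072 to 0.705 for replicate 3. For replicate 2 they ran from -0.401 to 0.371. The main model has no term for the replicate number. A replicate block gave 104 lowered probe sets (61 genes) instead of 58 (35). In the CHX difference it gave 102 (65) above 0 and 23 (15) below. It left the call of 138 of 139 named genes as it was and added that of Cd55. Leaving out 1 array at a time gave 333 to 387 raised probe sets (209 to 242 genes), 41 to 61 lowered (28 to 36), 242 to 289 above IFNα (149 to 180), 69 to 95 below it (43 to 59, with 69 without IFNα replicate 2), 32 to 60 above 0 in the CHX difference (23 to 42) and 4 to 12 below (3 to 7). The CHX counts moved by over 1.5 times without mock replicate 1, 2 or 3, IFNγ replicate 1 or 3, CHX replicate 1, 2 or 3, or IFNγ with CHX replicate 1 or 3. The added constant of 16, the filter at 64 and quantile normalization left all 12 counts within 1.5 times, and the first of these cost 4 named genes their call. Low mock intensities limit the folds of the largest rises.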

Other observations

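Other genes that rose share a family or a receptor and stood in no list. They were chosen after their values had been seen, so that no count over them is a test. *Il6st*, which encodes gp130, the common chain of the IL-6 receptor family, rose by 1.00 on the log2 scale (SE 0.18), and its partner chains *Osmr* and *Lifr*, neighbours on chromosome 15, by 1.15 and 1.33 (SE 0.10 and 0.15). *Steap1*, *Steap2* and *Steap4*, metalloreductases in a run on chromosome 5, rose by 1.58, 1.21 and 1.43 (SE 0.15, 0.17 and 0.19). The homeobox genes *Hoxd3*, *Hoxd8* and *Hoxd9* rose by 3.75, 1.96 and 1.76 (SE 0.31, 0.24 and 0.21). *Hoxd3* was at 10.8, 17.9 and 17.9 in mock and 186, 213 and 212 with IFNγ. *Fst*, which encodes follistatin, an antagonist of activin, rose from 739.5, 674 and 428 to 8719, 6815 and 5977 (log2 change 3.57, SE 0.21).

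Among the genes that fell and stood in no list were *Bdnf*, a neurotrophin gene, from 2718, 3405 and 3302 to 1692, 1218 and 1749 (log2 change -1.03, SE 0.20), *Cited2*, a transcriptional coregulator gene (-1.14, SE 0.21), *Ptger4*, a receptor of prostaglandin E (-1.21, SE 0.14), and *Map2k6*, a kinase of the p38 pathway (-1.45, SE 0.18). Of immediate-early genes not called, *Fosb* was at -1.86 (SE 0.44, adjusted p = 0.0274) and *Srf* at -0.86 (SE 0.34, adjusted p = 0.308).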
